A study of Mus musculus with 2 samples.

Results

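A set of 9 genes that encode ligands and enzymes with which myeloid cells restrain T cells was followed through 2 single-cell RNA libraries of mouse myeloid-derived suppressor cells (MDSC). They were chosen by name: Cd274, Pdcd1lg2, Vsir, Lgals9, Tgfb1, Il10, Ptgs2, Il4i1 and Entpd1, which are 9 of the 32285 genes in the count tables. Marrow cells of female C57BL/6 mice, 10 weeks old, had been turned into MDSCs over 4 days with GM-CSF and IL-6 at 50 ng/mL each, in the presence of either 1.5 µM dabrafenib (DAB), a BRAF kinase inhibitor, or the same volume of its solvent DMSO. Both libraries were made with the 10x Genomics 5′ v2 kit, and the sources used here do not say how many mice or cultures stood behind each. Marrow cultures of this kind are a model of MDSCs, and they hold several cell types.

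MDSCs are immature granulocytic and monocytic cells defined by their ability to suppress T cells. PD-L1 (Cd274) and PD-L2 (Pdcd1lg2) do so by binding the receptor PD-1, VISTA (Vsir) through receptors of its own, and galectin-9 (Lgals9) through TIM-3 and other glycoproteins. TGF-β1 (Tgfb1) and IL-10 (Il10) are secreted cytokines that restrain T cell and myeloid activation. COX-2 (Ptgs2) carries out the committed step of prostaglandin E2 synthesis, IL4I1 (Il4i1) is a secreted amino acid oxidase whose products activate the aryl hydrocarbon receptor (AHR), and CD39 (Entpd1) starts the breakdown of extracellular ATP to adenosine.

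After removal of damaged cells and called doublets, 9032 DMSO cells with 92390724 unique molecular identifiers (UMIs, counted RNA molecules) and 10476 DAB cells with 140660979 UMIs were analysed, with medians of 7516.5 and 9473 UMIs per cell. The myeloid marker Itgam was seen in 81.7% of the DMSO cells and in 84.1% of the DAB cells, and the libraries shared 152 cell barcodes. Levels are given as UMIs per 1000000 UMIs of the same cells (CPM), and ratios as log2 of DAB over DMSO with exact 95% intervals. With 1 library per condition there is no spread between replicates and no test, and all intervals cover counting error only. A gene is called lower or higher where its log2 ratio was at least 0.5 in size and the interval left out 0. Counts of clusters and of pathway genes, and shares of all genes or of gene and class or cluster pairs, use the size of the ratio alone. Cells were clustered without the 9 genes, and clusters were named from marker genes, so "mature PMN-like" (PMN, polymorphonuclear) refers to markers alone. Clusters without a name held 51.8% of DMSO and 49.5% of DAB cells.

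Cd274 lies on chromosome 19 from 29367455 to 29388095 (GRCm38, the mm10 assembly) and Pdcd1lg2 follows it on the same strand from 29410919 to 29471161, with 22823 bases between them. Tgfb1 lies on chromosome 7 from 25687002 to 25705077, and Il4i1 on chromosome 7 from 44816387 to 44840809. The bases just before the RefSeq start of these genes are shown for the 3 members that were past the fold over all cells, and for Pdcd1lg2 as the neighbour of Cd274 (RefSeq, GRCm38.p6, 250 bases, plus strand). The Il4i1 window lies inside the gene as GENCODE draws it, because the RefSeq start used here is downstream of the GENCODE start. Capitals mark matches on either strand to the motifs named after the sequences.
Cd274, chr19:29367188-29367437: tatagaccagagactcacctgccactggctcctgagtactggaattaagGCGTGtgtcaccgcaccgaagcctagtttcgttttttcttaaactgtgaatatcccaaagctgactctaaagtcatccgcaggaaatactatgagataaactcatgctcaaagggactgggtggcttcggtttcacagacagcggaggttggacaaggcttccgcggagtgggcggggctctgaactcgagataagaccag
Pdcd1lg2, chr19:29410669-29410918: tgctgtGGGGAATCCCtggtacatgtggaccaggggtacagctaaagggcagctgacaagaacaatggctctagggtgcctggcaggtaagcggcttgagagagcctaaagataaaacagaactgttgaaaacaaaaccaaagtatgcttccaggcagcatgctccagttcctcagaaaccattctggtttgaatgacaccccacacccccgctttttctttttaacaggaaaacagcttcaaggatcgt
Tgfb1, chr7:25686752-25687001: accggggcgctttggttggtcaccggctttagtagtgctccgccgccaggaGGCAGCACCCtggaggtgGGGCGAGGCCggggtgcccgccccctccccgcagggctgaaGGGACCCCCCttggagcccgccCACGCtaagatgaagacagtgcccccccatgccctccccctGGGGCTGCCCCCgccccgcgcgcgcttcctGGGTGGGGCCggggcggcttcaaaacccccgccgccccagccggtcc
Il4i1, chr7:44836038-44836287: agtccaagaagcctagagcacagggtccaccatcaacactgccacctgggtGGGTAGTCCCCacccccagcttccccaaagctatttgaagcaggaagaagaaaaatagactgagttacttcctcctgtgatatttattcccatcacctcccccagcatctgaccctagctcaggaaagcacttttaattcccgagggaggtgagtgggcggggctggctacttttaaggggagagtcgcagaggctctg

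The motifs searched on both strands were the C/EBP-ATF response element TGATGNAAT, the STAT pattern TTCNNNGAA, the AP-1 site TGAGTCA, the AHR core GCGTG, and an NF-κB pattern of GGG and CC with 5 bases of any kind between them. Promoter sequences were found for 8 of the 9 genes, with 9 start sites because Entpd1 has a pair of them. Of these 9 windows, 5 held the NF-κB pattern, which 45.8% of 32851 mouse promoters hold, and 4 held the AHR core, which 28.2% hold. In Cd274 the AHR core stood 201 bases before the start, in Pdcd1lg2 the NF-κB pattern stood at 244, and in Il4i1 a pair of overlapping NF-κB matches stood at 199 and 198. Tgfb1 had 7 NF-κB matches, those at 77, 76 and 75 bases overlapping each other, and an AHR core at 118. None of the 9 windows held the C/EBP-ATF, STAT or AP-1 letters, which 0.816%, 7.02% and 4.46% of promoters hold. These are matches of letters and not measured binding sites.

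Over all cells, Cd274 and Il4i1 were lower and Tgfb1 was higher in DAB, while Pdcd1lg2, Vsir, Lgals9, Ptgs2 and Entpd1 lay within the fold. Il10 was barely counted. Of the 8 members with at least 200 UMIs, 2 were therefore lower, where 14.7% of 12123 genes with as many UMIs were past the fold in this direction, and 1 was higher, where 13.4% of genes were. The median log2 ratio of the 8 members was -0.14, against -0.008 for all these genes.

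Cd274, the gene for PD-L1, had 13144 UMIs in the DMSO and 9389 in the DAB library, 142.3 CPM (95% interval 139.8 to 144.7) against 66.7 CPM (65.4 to 68.1). The log2 ratio was -1.09 (-1.13 to -1.05), and 3.80% of the 12123 genes had a lower ratio. Summed over a library, fewer cells of a type that carries the gene and less of its RNA per cell cannot be told apart. With every cluster given the same weight in both libraries, the log2 ratio was -1.01.

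By class, Cd274 was lower in the mature PMN-like, chemokine-high granulocyte-like, granulocyte progenitor-like, both monocyte-like and the macrophage-like classes. It lay within the fold in the activated dendritic cell-like, intermediate granulocyte-like and basophil- or mast cell-like classes. The chemokine-high class was named from Ccl3, Ccl4, Cxcl2, Cxcl3 and Ccl6, with S100a8 or Csf3r above the other cells. Its lineage was not tested further. Activated dendritic cell-like cells, marked by Ccr7, Fscn1 and Ccl22, had the highest level in both libraries, 434.5 CPM in DMSO and 357.9 CPM in DAB, a log2 ratio of -0.28 that stayed within the fold. Clustered without alignment of the libraries, chemokine-high granulocyte-like cells were highest in DMSO, with 333.4 against 318.8 CPM. Chemokine-high granulocyte-like cells came next in DMSO with 289.9 CPM and had 121.9 CPM in DAB (log2 -1.25, -1.37 to -1.13). Mature PMN-like cells had 261.2 and 145.2 CPM (-0.85, -0.98 to -0.71). In DMSO the intervals of the chemokine-high and mature PMN-like classes overlapped each other and not that of the dendritic class.

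The monocyte-like and macrophage-like classes showed the same direction. Immature monocyte-like cells had 176.6 CPM of Cd274 in DMSO and 66.2 CPM in DAB (log2 -1.42, -1.57 to -1.26), and mature monocyte-like cells, marked by MHC class II genes, had 140.7 and 72.8 CPM (-0.95, -1.06 to -0.84). Macrophage-like cells had 191.5 and 95.3 CPM (-1.01, -1.28 to -0.73). The most negative ratio among the classes was that of granulocyte progenitor-like cells, the precursors marked by Elane and Mpo, with 71.7 and 21.9 CPM (-1.71, -1.95 to -1.47).

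Intermediate granulocyte-like cells had the lowest Cd274 level, 25.2 CPM in DMSO and 19.5 CPM in DAB, with a log2 ratio of -0.37 (-0.84 to 0.07). Basophil- or mast cell-like cells had 57.7 and 59.4 CPM (0.04, -0.61 to 0.73). In all, Cd274 was lower in 6 of the 9 classes with at least 100 of its UMIs, the minimum for a call in a class or cluster, where 15.6% of gene and class pairs were past the fold in this direction, and it was higher in none. B cell-like cells, with 68 UMIs of the gene in all, had 52.9 and 29.6 CPM. In activated dendritic cell-like cells the ratio stayed within the fold over 8 other clusterings, from -0.44 to -0.003. The other within-fold readings were not stable. Without doublet removal the ratio was -1.03 in intermediate granulocyte-like and -0.67 in basophil- or mast cell-like cells. Without alignment of the libraries it was -0.57 in the former, and at a Leiden resolution of 0.5 it was -0.61 in the latter.

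**Figure D1:**
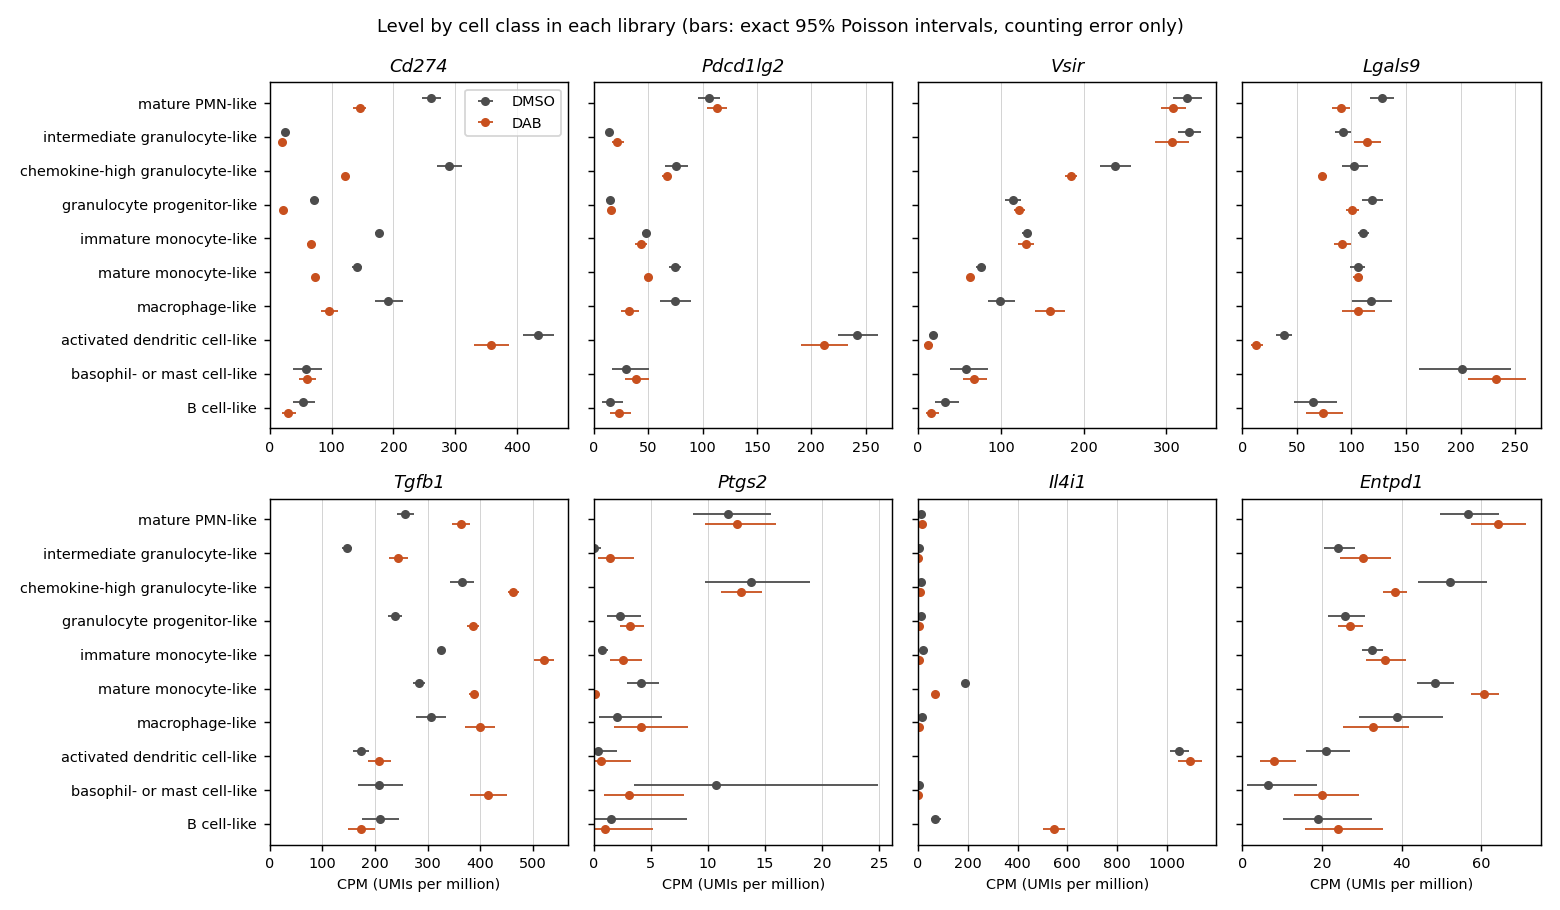
Level of 8 members in 10 cell classes, in CPM on the horizontal axes (each gene on its own scale), for DMSO (grey) and DAB (orange); bars are exact 95% Poisson intervals of 1 library each. Cd274 points sit further left in DAB in most classes, Tgfb1 points further right, and Il4i1 stands apart in activated dendritic cell-like cells in both libraries and in B cell-like cells in DAB.

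The mature PMN-like and chemokine-high granulocyte-like classes join several clusters whose shares differed between the 2 libraries, so their clusters were also read alone. The mature PMN-like clusters D and Q held 741 and 109 DMSO cells and 497 and 397 DAB cells, and a smaller cluster W held 28 and 302. Cd274 was within the fold in Q, with 142.5 and 113.9 CPM (log2 -0.32, -0.68 to 0.04), and was lower in D, with 284.5 and 172.9 CPM (-0.72). The class ratio of -0.85 was more negative than both, and W had too few DMSO cells to be compared. The part of the cluster mix in the class ratio was not tested. The chemokine-high clusters F, I and S held 204, 73 and 146 DMSO cells and 834, 777 and 301 DAB cells. Their Cd274 log2 ratios were -1.03, -1.24 and -1.24. The leading genes were Gpnmb, Ccl2 and Atp6v0d2 in F, Cxcl3, Cxcl2 and Mmp13 in I, and Ccl4, Ccl3 and Il1b in S. In F all 5 class markers were raised, but only 1 was among its 10 leading genes, and a granulocyte lineage was not tested.

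Over all clusters, named or not, that held at least 50 cells from both libraries, Cd274 was lower in 18 of the 24 with at least 100 of its UMIs, where 14.3% of gene and cluster pairs were past the fold in this direction. Its log2 ratio lay below 0 in 23 of the 24, with a median of -1.02. It ran from -1.71 in cluster N, the granulocyte progenitor-like cells, to 0.04 in cluster AA, the basophil- or mast cell-like cells. In cluster O, cycling cells led by Ube2c and Cenpf, it was -1.49.

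To compare cells of unequal depth, each cell was thinned at random to 1500 UMIs. Cd274 was then seen in 18.7% (17.9 to 19.5) of 8596 cells of the DMSO library and in 12.2% (11.6 to 12.9) of 10185 cells of the DAB library. Intermediate granulocyte-like cells, taken as the class that should hold least of it, had 3.61% and 3.29%, and before thinning their median depths were 7042 and 12468 UMIs. Shares in chemokine-high granulocyte-like cells were 39.6% and 19.1%, in mature PMN-like cells 32.5% and 18.6%, and in activated dendritic cell-like cells 46.7% and 36.2%. The intervals of the 2 libraries overlapped in the last of these and not in the chemokine-high and mature PMN-like classes. Without thinning, the shares over all cells were 50.4% and 43.0%.

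**Figure D2:**
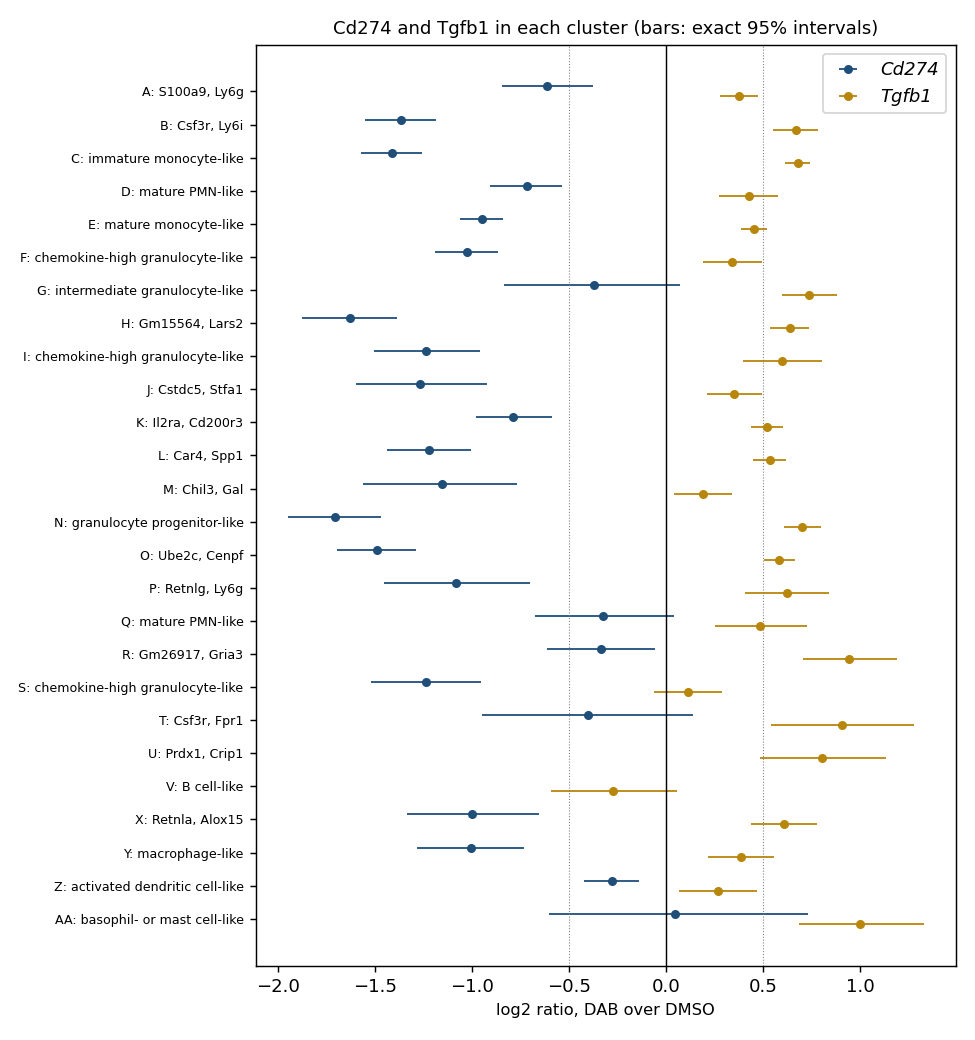
Log2 ratio of DAB over DMSO of Cd274 (blue) and Tgfb1 (ochre) in each cluster that held at least 50 cells from both libraries and 100 UMIs of the gene; bars are exact 95% intervals and dotted lines mark 0.5 in size. All Cd274 points but that of cluster AA lie left of 0, and all Tgfb1 points but that of cluster V lie right of 0.

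Pdcd1lg2, the gene for PD-L2, had 5582 and 7143 UMIs, 60.4 CPM in DMSO and 50.8 CPM in DAB. Its log2 ratio over all cells was -0.25 (-0.30 to -0.20), within the fold. Its highest level was again in activated dendritic cell-like cells, with 242.4 and 211.3 CPM (log2 -0.20), and mature PMN-like cells came next with 105.6 and 113.1 CPM (0.10).

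The classes did not share a direction for Pdcd1lg2. Macrophage-like cells had 74.3 CPM in DMSO and 32.3 CPM in DAB (log2 -1.20, -1.68 to -0.74), and mature monocyte-like cells had 74.6 and 49.3 CPM (-0.60, -0.74 to -0.45). Intermediate granulocyte-like cells had 13.7 and 21.2 CPM, from 88 and 62 UMIs (0.63, 0.14 to 1.11). Pdcd1lg2 was therefore lower in 2 and higher in 1 of 8 classes. Of all gene and class pairs, 15.6% were past the fold in the lower and 16.1% in the higher direction. The 1 higher class is thus near the general share. It was also the class taken to hold little of the gene, and had its lowest level in DMSO. Without doublet removal the intermediate granulocyte-like ratio was 0.19, within the fold. In mature PMN-like cells, where Cd274 was lower, the interval of the Pdcd1lg2 ratio was -0.08 to 0.28.

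Both PD-1 ligands were seen in the same cell, after thinning, in 2.66% of cells in the DMSO and 1.96% in the DAB library. In activated dendritic cell-like cells the shares with both were 13.2% and 12.4%, and in chemokine-high granulocyte-like cells 8.08% and 3.48%. Without regard to Cd274, Pdcd1lg2 was seen in 9.06% (8.46 to 9.69) of the thinned DMSO cells and in 9.69% (9.12 to 10.3) of the thinned DAB cells, against 2.86% and 3.29% in intermediate granulocyte-like cells.

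Vsir, the gene for VISTA, lies on chromosome 10 from 60346851 to 60372684 and had 16356 and 21670 UMIs, 177.0 CPM in DMSO and 154.1 CPM in DAB (log2 -0.20). Its highest levels were in mature PMN-like cells, with 325.3 and 308.0 CPM, and in intermediate granulocyte-like cells, with 327.5 and 306.4 CPM. The intervals of this pair overlapped in both libraries. Activated dendritic cell-like cells, where Cd274 and Pdcd1lg2 were highest, had the lowest Vsir level, 17.7 and 12.1 CPM. Macrophage-like cells were the 1 class of 8 past the fold, a share below the 16.1% of all gene and class pairs, with 99.5 CPM in DMSO and 158.9 CPM in DAB (log2 0.67, 0.39 to 0.97). That ratio was within the fold under 3 other clusterings, at 0.45 with the members kept among the clustered genes, 0.23 at a resolution of 0.5 and 0.30 without doublet removal. Vsir was lower in 2 of 23 clusters, the chemokine-high I and S, with log2 ratios of -0.51 and -0.52. That is below the 14.3% of gene and cluster pairs past the fold in this direction.

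Lgals9, the gene for galectin-9, lies on chromosome 11 from 78962974 to 78984946 on the minus strand. It had 9382 and 13557 UMIs, 101.5 CPM in DMSO and 96.4 CPM in DAB (log2 -0.08). It was highest in basophil- or mast cell-like cells, with 200.8 and 232.4 CPM (0.21, -0.13 to 0.56), and lowest in activated dendritic cell-like cells, with 38.0 and 12.7 CPM, from 105 and 22 UMIs (-1.58, -2.32 to -0.91). Mature PMN-like cells had 128.1 and 90.2 CPM (-0.51, -0.69 to -0.32), and -0.44 with the members kept among the clustered genes. These were the 2 of 10 classes in which Lgals9 was lower. That is near the general share, as 15.6% of gene and class pairs were past the fold in this direction. Most other classes overlapped their neighbours in the order of levels, between 64.7 and 118.9 CPM in DMSO.

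Tgfb1, the gene for TGF-β1, was the member that was higher in DAB. It had 27033 UMIs in the DMSO and 62420 in the DAB library, 292.6 CPM (289.1 to 296.1) against 443.8 CPM (440.3 to 447.3). The log2 ratio was 0.60 (0.58 to 0.62), and 90.0% of the genes had a lower ratio. With every cluster given the same weight in both libraries it was 0.53.

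Immature monocyte-like cells, with 325.5 CPM of Tgfb1 in DMSO, had the highest level of the classes in DAB with 521.2 CPM (log2 0.68, 0.61 to 0.74). Granulocyte progenitor-like cells had 237.5 and 386.2 CPM (0.70, 0.61 to 0.80), and intermediate granulocyte-like cells had 146.2 and 243.8 CPM (0.74, 0.60 to 0.88). Basophil- or mast cell-like cells had 207.2 and 414.6 CPM, from 97 and 537 UMIs (1.0, 0.69 to 1.33). These were the 4 of 10 classes in which Tgfb1 was higher, where 16.1% of gene and class pairs were past the fold in this direction. In granulocyte progenitor-like cells the ratio was 0.38 at a resolution of 1.5 and 0.495 without alignment of the libraries, both within the fold.

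In the remaining myeloid classes the Tgfb1 ratio was above 0 but under the fold. Mature PMN-like cells had 257.8 and 363.4 CPM (log2 0.49), mature monocyte-like cells had 283.3 and 387.6 CPM (0.45), and chemokine-high granulocyte-like cells had 365.4 and 463.3 CPM (0.34). Macrophage-like cells had a ratio of 0.38 and activated dendritic cell-like cells one of 0.27. B cell-like cells had 208.8 and 173.0 CPM (-0.27, -0.59 to 0.05), the 1 class with a ratio below 0.

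By cluster, Tgfb1 was higher in 15 of 26, where 14.8% of gene and cluster pairs were past the fold in this direction, and it was lower in none. Its log2 ratio lay above 0 in 25 of the 26, with a median of 0.56. In the chemokine-high clusters F, I and S it was 0.34, 0.60 and 0.11, and in the mature PMN-like clusters D and Q it was 0.42 and 0.49. Cluster K, led by Il2ra and Cd200r3, held 15.9% of the DAB library's Tgfb1 UMIs and 4.86% of the DMSO library's, from 624 and 153 cells, and had 483.7 CPM in DMSO and 693.6 CPM in DAB. After thinning, Tgfb1 was seen in 30.9% (29.9 to 31.9) of cells in the DMSO library and in 42.4% (41.5 to 43.4) in the DAB library, with the lowest class shares in basophil- or mast cell-like cells in DMSO (16.4%) and in B cell-like cells in DAB (20.5%).

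**Figure D3:**
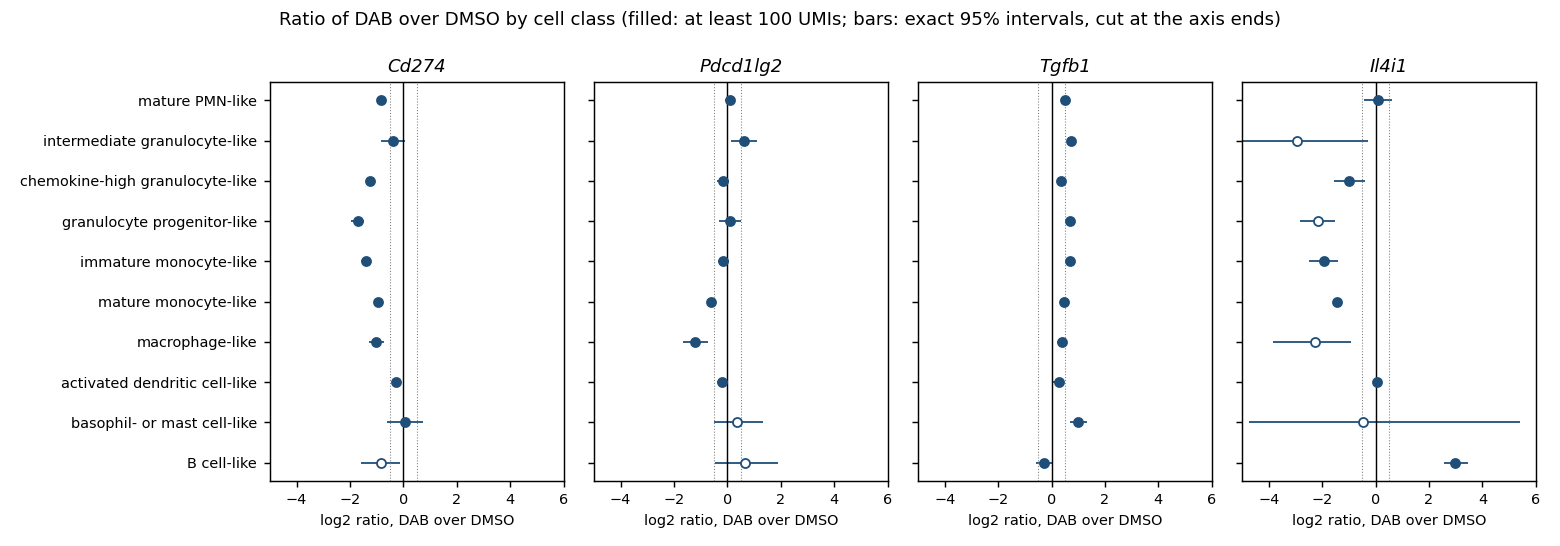
Log2 ratio of DAB over DMSO of 4 members in 10 cell classes; filled points have at least 100 UMIs, bars are exact 95% intervals cut at the axis ends, and dotted lines mark 0.5 in size. Cd274 lies left of 0 in most classes, Pdcd1lg2 on both sides, Tgfb1 right of 0 except in B cell-like cells, and Il4i1 spans -1.94 in immature monocyte-like to 2.98 in B cell-like cells among filled points.

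Il10 lies on chromosome 1 from 131019845 to 131024974 and was close to absent from these libraries, with 3 UMIs in 3 DMSO cells and 8 UMIs in 7 DAB cells. The log2 ratio of 0.81 has an interval of -1.25 to 3.36, and a difference was not detectable at this depth. B cell-like cells held 1 of the DMSO and 4 of the DAB UMIs, and chemokine-high granulocyte-like cells held 1 and 3. Both monocyte-like classes had 0 UMIs in both libraries. After thinning, 0 of 8596 DMSO cells had an Il10 UMI, which allows a share of up to 0.0349% of cells with a UMI at that depth (3 counts of the total) and sets no limit on cells that express the gene.

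Ptgs2, the gene for COX-2, lies on chromosome 1 from 150100031 to 150108227 and was also thinly counted, with 276 and 518 UMIs. Its level was 2.99 CPM (2.65 to 3.36) in DMSO and 3.68 CPM (3.37 to 4.01) in DAB, a log2 ratio of 0.30 (0.09 to 0.52). This ratio was -0.17 when standardized to the classes, 0.05 when standardized to the clusters and 0.71 as the mean of each cell's CPM, so neither its direction nor its place within the fold held. Chemokine-high granulocyte-like cells held 13.8% of the gene's UMIs in DMSO and 39.6% in DAB, and mature PMN-like cells held 17.8% and 12.9%. Chemokine-high granulocyte-like cells had 13.8 and 12.9 CPM (log2 -0.10, -0.60 to 0.44), a ratio that ran from -1.01 to 0.90 over 8 other clusterings, and mature PMN-like cells had 11.7 and 12.6 CPM (0.10, -0.45 to 0.66). Within the chemokine-high class, cluster S, led by Ccl4, Ccl3 and Il1b, had 36.3 CPM in DMSO and 34.4 CPM in DAB. After thinning, 1.52% and 2.52% of chemokine-high granulocyte-like cells (median depths 4480 and 6032.5 UMIs) had a UMI, against 0.775% and 0% of B cell-like cells, where 0 of 176 DAB cells allows up to 1.70%.

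Mature monocyte-like cells held 13.4% of the Ptgs2 UMIs in DMSO and 0.386% in DAB. They had 37 UMIs in 15 of 456 DMSO cells and 2 UMIs in 2 of 686 DAB cells, 4.16 CPM (2.93 to 5.73) against 0.102 CPM (0.012 to 0.370). The log2 ratio was -5.34 (-8.44 to -3.39), on fewer UMIs than the 100 set for a call. Cluster R, unnamed and led by Gm26917 and Gria3, had 4 and 43 UMIs, 5.25 and 28.8 CPM (log2 2.46, interval 0.997 to 4.40), also under that minimum.

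Il4i1 was concentrated in a small class of cells. It had 6564 UMIs in the DMSO and 4581 in the DAB library, 71.0 CPM (69.3 to 72.8) against 32.6 CPM (31.6 to 33.5), a log2 ratio of -1.13 (-1.18 to -1.07), and 3.59% of genes had a lower ratio. With every cluster given the same weight in both libraries the ratio was -0.54, and with every cell weighted alike, as the mean of each cell's CPM, it was -0.38 and within the fold. Activated dendritic cell-like cells were 1.86% of DMSO and 1.01% of DAB cells and held 44.2% and 41.3% of all Il4i1 UMIs. Cluster AC, unnamed and led by Ccl17 and Plet1, held 10.2% of the DMSO UMIs of Il4i1 in 121 cells and 2.10% of the DAB UMIs in 15 cells.

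Within the activated dendritic cell-like class the Il4i1 level was alike in the libraries, 1050.7 CPM in DMSO and 1092.3 CPM in DAB (log2 0.06, -0.03 to 0.14). Clustered without alignment of the libraries, this ratio was 0.51. The top 5 cells held 17.0% of the class's Il4i1 UMIs in DMSO and 29.9% in DAB. In mature monocyte-like cells the top 5 held 16.8% and 28.6%, an unevenness that the counting intervals leave out. Mature monocyte-like cells had 188.2 and 68.5 CPM (-1.46, -1.56 to -1.35), immature monocyte-like cells 21.3 and 5.56 CPM (-1.94, -2.52 to -1.41), and chemokine-high granulocyte-like cells 13.4 and 6.72 CPM (-1.0, -1.55 to -0.42). Mature PMN-like cells had 12.9 and 13.7 CPM (0.08, -0.44 to 0.62), but this ratio was -0.88 without alignment, -0.71 when genes with a library difference in most clusters were left out of the clustering and 0.62 without doublet removal. The gene was thus lower in 3 and higher in 1 of 6 classes, where 15.6% and 16.1% of gene and class pairs were, so that the 1 higher class is near the general share. The lowest cluster ratio was in cluster K, with 56.4 CPM in DMSO and 3.21 CPM in DAB (-4.14, -4.64 to -3.65).

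The class in which Il4i1 was higher was that of B cell-like cells, marked by Cd79a, Ebf1 and Pax5. It had 47 UMIs in 140 DMSO cells and 589 in 191 DAB cells, 69.1 CPM (50.8 to 91.9) against 544.9 CPM (501.8 to 590.7), a log2 ratio of 2.98 (2.55 to 3.44). These cells held 0.716% of the DMSO and 12.9% of the DAB library's Il4i1 UMIs. At least 1 UMI was present in 22.9% of the DMSO and 60.2% of the DAB B cell-like cells, and the highest cell had 3 and 36. In DAB, 20 of the 191 cells held at least 50% of the 589 UMIs, and the top 5 cells held 21.1%. Mature monocyte-like cells of the DAB library were more uneven, with at least 50% of the UMIs in 18 of 686 cells and 144 in the highest cell. In cells of this class with a UMI of Cd79a or Cd79b, which encode the B cell receptor's signalling chains, the levels were 69.2 CPM in 139 DMSO cells and 544.6 CPM in 183 DAB cells. Nearly all cells of the class were in this group, because the class was named partly from these genes. The split therefore cannot tell more than the class levels.

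Other genes of these B cell-like cells also differed between the libraries. Of the 7 markers used to name the mature monocyte-like class, 6 had a higher level in their DAB cells. Among them were H2-Aa (1094.1 and 3382.3 CPM) and Cd74 (3547.0 and 10252.4 CPM). All 6 are genes of MHC class II presentation, and the DMSO B cell-like cells also held them. Whether the higher levels in DAB were RNA of these cells or of other cells, as in doublets, was not tested. The remaining marker, Cd209a, was at 0 in both libraries. The summed level of the 7 markers was 6851 CPM in DMSO and 18598 CPM in DAB. Of the 8 B cell markers, 7 had a higher level in DAB and Ighm, the IgM heavy chain, a lower one, with 6372 and 2734 CPM. These counts of markers take a difference of any size, such as that of Ms4a1 (142.6 and 173.9 CPM), and not the fold. No share of all genes in these cells was computed beside them. Of the 7 activated dendritic cell markers, Cacnb3, Nudt17 and Zmynd15 were at 0 in both libraries, Fscn1 had 1 and 2 UMIs, and the sum of all 7 was 385.3 and 314.5 CPM. The part of these differences in the Il4i1 ratio was not tested.

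Il4i1 shares its locus with other genes. Nup62, a nuclear pore gene on the same strand, overlaps it, and B cell-like cells had 29.4 CPM of Nup62 in DMSO and 50.9 CPM in DAB. Atf5, a stress-response transcription factor gene on the opposite strand, overlaps the annotated 5′ end. Its level was 22.6 CPM over all DMSO and 152.8 CPM over all DAB cells (log2 2.75), and 14.7 and 19.4 CPM in B cell-like cells. Tbc1d17, also on the opposite strand, overlaps Il4i1 as well and had 2208 and 2417 UMIs over all cells. How reads shared between Il4i1 and Nup62 were assigned was not tested. Cd274, Pdcd1lg2 and Vsir each overlap an annotated gene on the opposite strand as well. Entpd1 overlaps genes on its own strand, of which AC166063.1 had 0 UMIs in both libraries and Gm16027 and Gm8783 were not counted.

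Among thinned activated dendritic cell-like cells, Il4i1 was seen in 55.1% (47.2 to 62.8) in DMSO and in 61.0% (50.9 to 70.3) in DAB, against 0.498% and 0% of intermediate granulocyte-like cells, where 0 of 213 DAB cells allows up to 1.41%. In B cell-like cells the shares were 8.53% (4.33 to 14.7) and 44.3% (36.8 to 52.0), where the median depths before thinning were 4005.5 and 4906 UMIs. In mature monocyte-like cells they were 16.7% (13.4 to 20.4) and 6.13% (4.45 to 8.20). Cd274 and Il4i1 were seen together in 27.5% and 20% of activated dendritic cell-like cells, and in 3.95% and 0.730% of mature monocyte-like cells.

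**Figure D4:**
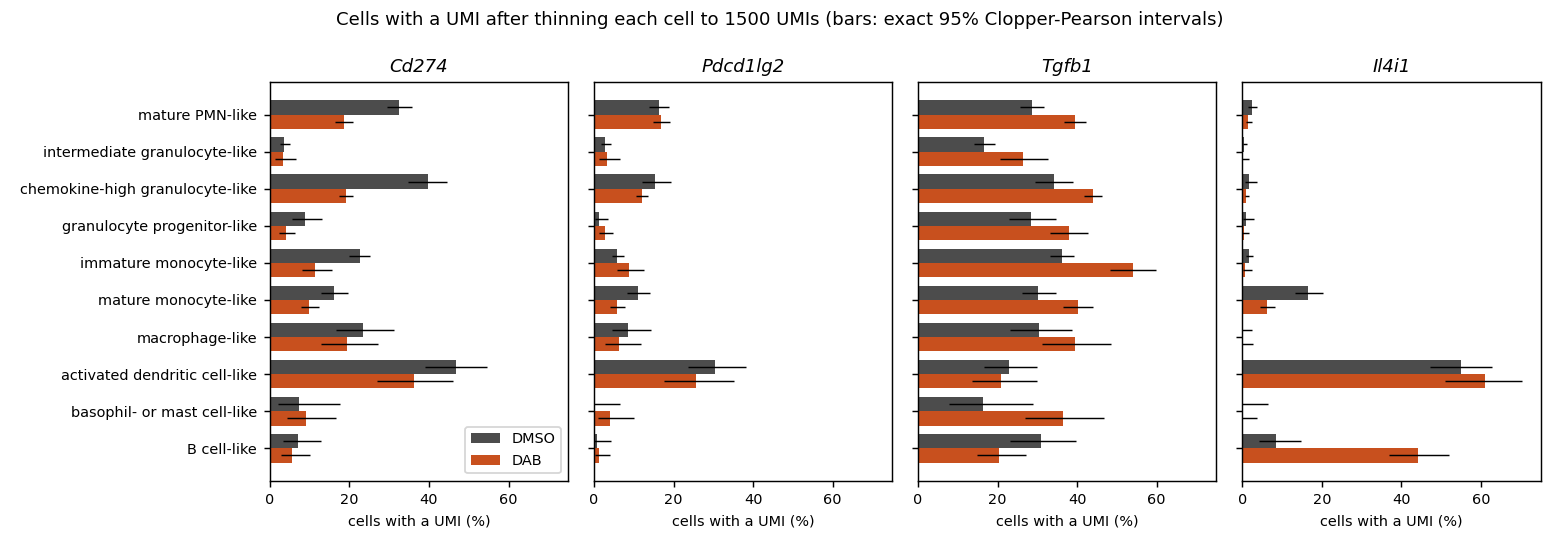
Share of cells with a UMI of 4 members in 10 cell classes after thinning each cell to 1500 UMIs, in percent, for DMSO (grey) and DAB (orange); lines on the bars are exact 95% Clopper-Pearson intervals. The Il4i1 bars stand out in activated dendritic cell-like cells of both libraries (55.1% and 61.0%) and in DAB B cell-like cells (44.3%).

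Entpd1, the gene for CD39, lies on chromosome 19 from 40612366 to 40741602 and had 3325 and 6084 UMIs, 36.0 CPM in DMSO and 43.3 CPM in DAB (log2 0.27, within the fold). Mature PMN-like cells were highest with 56.7 and 64.2 CPM, followed in DAB by mature monocyte-like cells, which had 48.3 and 60.8 CPM (0.33, 0.17 to 0.49). The intervals of these classes overlapped in both libraries. None of 7 classes was past the fold. Of 21 clusters, 3 had a log2 ratio over 0.5, the highest 0.67 in cluster Q, whose interval reached 0, and none had one below -0.5. This count is near the general share, 14.8% of gene and cluster pairs past the fold in the higher direction. Activated dendritic cell-like cells had 58 and 14 UMIs, 21.0 and 8.08 CPM (-1.38, -2.33 to -0.52), on fewer than 100 UMIs.

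The other genes of these pathways were taken from 8 lists with 96 genes, of which 81 had at least 200 UMIs. Of these, 10 were higher and 19 lower in DAB over all cells, with a median log2 ratio of -0.15. Over all genes 13.4% were past the fold in the higher and 14.7% in the lower direction, and the shares of the 81 genes were 12.3% and 23.5%. The lists were chosen with earlier results of these data known, so the shares of the lists are descriptions. Ratios over all cells do not part a change within clusters from a change in their mix. Some genes were past the fold in most clusters, such as Cd86 in 14 of 15. Others were so in few, such as Pirb in 6 of 21, Nrros in 9 of 25 and Maf in 1 of 6. Entpd3 and Lrrc32 had no cluster with enough UMIs. In the list of checkpoint ligands and myeloid checkpoint receptors, 4 of 15 genes were higher and 2 lower. The costimulatory ligands Cd86 (30.6 and 67.5 CPM, log2 1.14) and Cd80 (13.4 and 20.8 CPM, 0.64) were higher, as was the inhibitory receptor gene Cd200r1 (105.8 and 179.9 CPM, 0.77). Nectin2, a ligand of TIGIT, was lower (8.17 and 2.87 CPM, -1.51), and so was the inhibitory receptor gene Pirb (62.6 and 42.7 CPM, -0.55). Havcr2, the gene for the galectin-9 receptor TIM-3, was the other higher gene, with 4.45 and 6.79 CPM (0.61), and Cd44 and Selplg, whose products bind galectin-9 and VISTA, had ratios of -0.31 and -0.18. Pdcd1, the gene for PD-1 itself, had 11 and 34 UMIs, too few for a call.

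Of 9 regulators of PD-L1, none was higher and 1 was lower, 11.1% against 14.7% of all genes. That was Stat3, a transcription factor downstream of IL-6, with 96.7 CPM in DMSO and 68.1 CPM in DAB (log2 -0.51). Cmtm6, which keeps PD-L1 at the cell surface, had 41.9 and 38.8 CPM (-0.11).

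Among 16 genes of TGF-β activation and signalling, 1 was higher and 3 lower. These shares are 6.25% and 18.8%, against 13.4% and 14.7% of all genes. Nrros, which anchors latent TGF-β1 on myeloid cells, was higher (115.8 and 166.6 CPM, log2 0.52), and Lrrc32, which does so on regulatory T cells and platelets, was lower (3.54 and 1.43 CPM, -1.31). Smad7, an inhibitor that TGF-β signalling itself induces, was lower (3062 and 2528 UMIs, log2 -0.88) and was past the fold in this direction in 14 of 18 clusters. Tgfb3, a related cytokine gene, was also lower (5.03 and 2.82 CPM, -0.83). The receptors Tgfbr1 and Tgfbr2 had log2 ratios of 0.28 and -0.29. In the IL-10 list 1 of 6 genes was higher, the transcription factor gene Maf (4.70 and 7.87 CPM, 0.74), and 2 were lower, Nfil3 (153.0 and 107.1 CPM, -0.51) and Socs3, a feedback inhibitor of cytokine signalling (69.6 and 41.0 CPM, -0.76). The receptor genes Il10ra (-0.27) and Il10rb (0.00) lay within the fold. The shares of the IL-10 list, 16.7% higher and 33.3% lower, rest on 6 genes.

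For prostaglandin E2, 1 of 8 genes was higher and 1 lower, 12.5% each, near the 13.4% and 14.7% of all genes. The receptor genes parted over all cells. Ptger2 had 9.48 CPM in DMSO and 26.5 CPM in DAB (log2 1.48, higher in 14 of 16 clusters). Ptger4 had 6.92 and 4.64 CPM (-0.58), but was past the fold in 0 of 2 clusters. The synthesis enzymes Ptgs1 and Ptges had ratios of 0.26 and -0.27, and Ptges was lower in 6 and higher in 1 of 10 clusters.

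In the list of amino acid catabolic suppression and AHR, none of 9 genes was higher and 4 were lower, 44.4% against 14.7% of all genes. Among the 4, lower Nos2 and Arg1 had already been reported by qPCR in the paper on these data. Nos2, the inducible nitric oxide synthase, had 111.1 and 11.0 CPM (log2 -3.34, lower in 19 of 19 clusters), and Arg1, arginase 1, had 1098.7 and 507.6 CPM (-1.11, lower in 14 and higher in 5 of 23 clusters). Arg2, the mitochondrial arginase (-0.66), and Arnt, the partner of AHR (-0.71), were also lower. Ahr, the receptor that IL4I1 products act on, had 51.1 and 54.0 CPM (0.08). Ido1, which also degrades tryptophan, had 19 and 21 UMIs.

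The adenosine list held 3 higher and 5 lower genes of 13, 23.1% and 38.5%, against 13.4% and 14.7% of all genes. Nt5e, the gene for CD73, which takes over from CD39 and releases adenosine, had 67.3 and 42.0 CPM (log2 -0.68). Cd38, which feeds adenosine from NAD, had 63.4 and 20.2 CPM (-1.65), Entpd3 had 3.39 and 0.412 CPM (-3.04) and Enpp1 had 221 and 148 UMIs (-1.18). Of the adenosine receptors, Adora2b had 53.0 and 82.8 CPM (0.64) and Adora3 had 10.5 and 28.0 CPM (1.42), while Adora2a lay at -0.06. The remaining genes past the fold were Dpp4 (0.88) and P2rx7, an ATP receptor gene (-0.73). Of 5 other galectin genes, Lgals4 was lower (4.30 and 2.18 CPM, -0.98), 20% of the list, and none was higher. Among the 15 genes of the 8 lists with fewer than 200 UMIs, Slco2a1, Pdcd1, Igsf11, Itgb8 and Ido2 had ratios of at least 1 in size, from 106 and 71 UMIs for Slco2a1 down to 1 and 5 for Igsf11, and none was called.

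**Figure D5:**
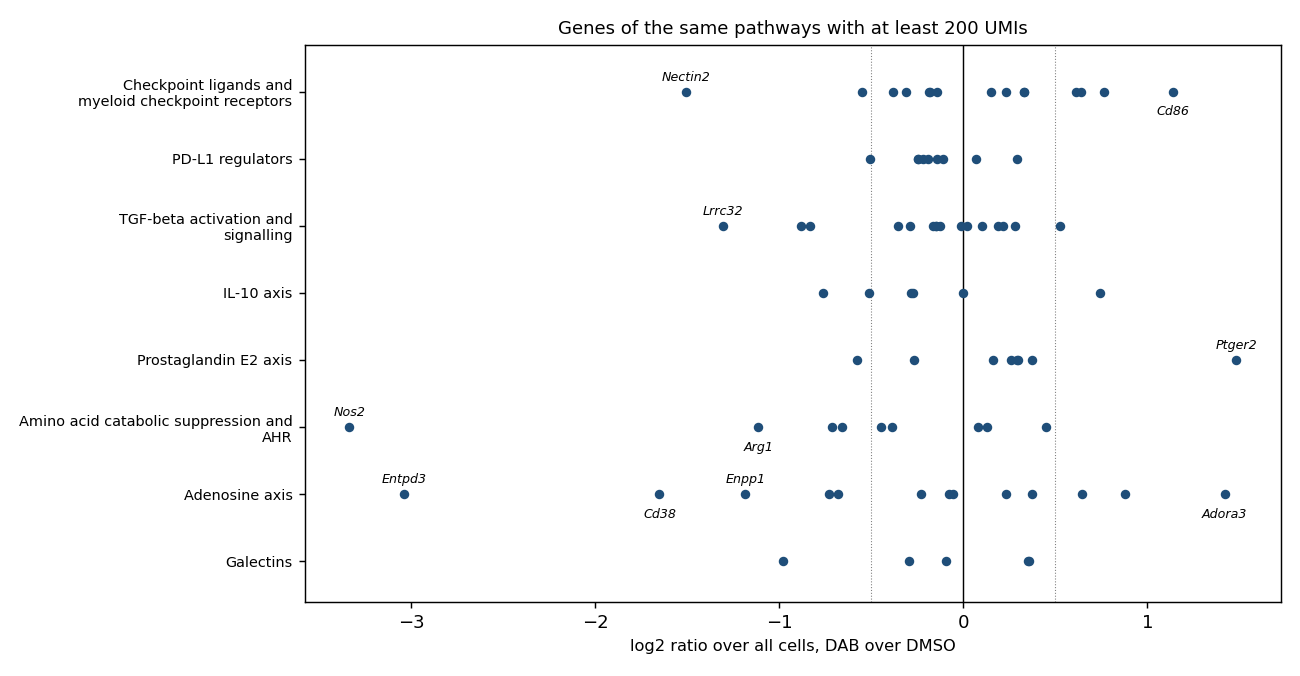
Log2 ratio of DAB over DMSO over all cells for the 81 other pathway genes with at least 200 UMIs, 1 point per gene in 8 lists; names mark ratios of at least 1 in size and dotted lines mark 0.5. Nos2 (-3.34) and Entpd3 (-3.04) lie furthest to the left, and Ptger2 (1.48) and Adora3 (1.42) furthest to the right.

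The genes whose pattern over clusters was most like that of a member were sought among 9609 genes with at least 1000 UMIs, over 55 points that are each 1 cluster of 1 library. The points share libraries and depth, so the correlations are descriptions. The pattern of Il4i1 was closest to Ccl22 (Pearson r 0.88), Syngr2 (0.87) and Kynu (0.86), and that of Pdcd1lg2 to Cd80 (0.77), Rala (0.74) and Cd274 (0.73). Cd274 itself was closest to Plekhm2 (0.80), Ddhd1 (0.80) and Itprid2 (0.79). Vsir was closest to Cln3 (0.92), Dhrs7 (0.91) and Gsr (0.91), and Entpd1 to Nptn (0.86), Atp2b1 (0.82) and A330023F24Rik (0.81). Tgfb1 was closest to Metrnl (0.77), Gusb (0.77) and Tmed5 (0.77), Lgals9 to Acyp1 (0.74), Eno1 (0.70) and Rbfa (0.70), and Ptgs2 to Mdm2 (0.75), Mcoln1 (0.71) and Ndfip2 (0.70). The Ptgs2 pattern rests on 276 and 518 UMIs. Its level in most classes was below the 10 CPM added to every level before the log.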

How the data were processed

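Each condition, DMSO and DAB, had 1 droplet library. The authors aligned and counted the reads with Cell Ranger 7.0.0 against mm10 and deposited the UMI counts of each gene in each barcode, not normalized. The sources used here do not say whether intronic reads were counted. Barcodes (9855 and 11631) were filtered at 10% mitochondrial UMIs and 4 median absolute deviations, and called doublets (768 and 1066, at 0.8% per 1000 cells) were removed, a caller that marked 45.75% of 400 planted doublets. Clustering used Pearson residuals of 3000 genes, 40 components, mutual nearest neighbour alignment, 20 neighbours and Leiden at 0.9, without the 105 members and pathway genes, and gave 31 clusters, of which 26 had at least 50 cells per library. Clusters were named from 16 marker lists, by a rule set after the clusters were seen. A name needed at least 3 markers at a log2 ratio of at least 1 over the other cells, but this minimum alone did not give one. Cluster AC, with 6 of 7 mature monocyte markers past it, stayed unnamed under further conditions. So did A, K, P, T and AB, with 4, 3, 5, 5 and 3 markers of their nearest list. A cluster without a name can therefore hold raised markers of a class.

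Ratios compare summed UMIs, with exact conditional binomial intervals, exact Poisson intervals for levels and Clopper-Pearson intervals for shares. UMIs were thinned to 1500 per cell, which left out 436 and 291 cells. Scripts ran on Python 3.11.15 with numpy 2.4.6, scipy 1.17.1, igraph 0.11.9 and leidenalg 0.10.2 and were tested on simulated data. Members and lists were chosen with earlier results of these data known. Pathway genes were named where the log2 ratio was at least 1 in size or where they are a receptor or partner of a member. Other pathway genes past the fold, Nup62, Atf5 and the marker levels in B cell-like cells were added after their values were seen.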

Additional observations from a re-analysis of the deposited data

Results flagged for a closer look

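Opposite directions between cell classes marked out a pair of members. Pdcd1lg2 had a log2 ratio of DAB over DMSO of 0.63 (0.14 to 1.11) in intermediate granulocyte-like cells, -0.60 (-0.74 to -0.45) in mature monocyte-like cells and -1.20 (-1.68 to -0.74) in macrophage-like cells. The first of these rests on 88 and 62 UMIs, and without doublet removal it was 0.19, within the fold. As 1 higher class of 8, it is near the general share of 16.1%. Il4i1 had a ratio of 2.98 (2.55 to 3.44) in B cell-like cells, against -1.46 (-1.56 to -1.35) in mature monocyte-like, -1.94 (-2.52 to -1.41) in immature monocyte-like and -1.0 (-1.55 to -0.42) in the chemokine-high granulocyte class. The differences between classes were not tested, since each class has 1 library per condition.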

How the results depend on the processing

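With the mean of each cell's CPM in place of summed UMIs, 1 member was lower and 2 were higher, with log2 ratios of -0.74 for Cd274, -0.38 for Il4i1 and 0.71 for Ptgs2, and the median of all genes was then 0.086. Standardized to the classes, Tgfb1 had 0.57 and Il4i1 -0.70, and standardized to the clusters, Cd274 had -1.01, Tgfb1 0.53 and Il4i1 -0.54. With a minimum of 1 UMI, 2 members had a log2 ratio of at least 0.5, the second being Il10, whose interval of -1.25 to 3.36 holds 0, and with a log2 ratio of 1 as the fold, 0 were. The causes were not tested. Scaling by the median of ratios, and leaving out the cell filter or the doublet removal, moved none of these counts. 

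Over 8 other clusterings, 1 of them added after the data were seen, Cd274 was past the fold in 75 to 92% of clusters and Tgfb1 in 40.9 to 63.6%. The 20 class ratios past the fold had 147 values under these clusterings, all 147 of the same sign and 139 still past the fold. The 8 others were of Vsir in macrophage-like, Lgals9 in mature PMN-like, Tgfb1 in granulocyte progenitor-like and Pdcd1lg2 in intermediate granulocyte-like cells. Not every ratio had a value under each clustering. Ratios in immature monocyte-like cells had one in only 6 of the 8, and Cd274 there ran from -1.51 to -0.80. In activated dendritic cell-like cells without alignment of the libraries, Il4i1 had 0.51 and Tgfb1 -0.42. The highest class was the same for Vsir in 1 of 8 clusterings in DMSO and 4 in DAB, for Ptgs2 in 5 and 3, for Tgfb1 in 6 and 6, and for Cd274 and Lgals9 in 7 and 8. Shares of cells with a UMI moved with the thinning depth.

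No paired analysis was possible because each condition has 1 library. Counting intervals leave out the variation between mice and cultures, so library and treatment cannot be told apart. Depth limits Il10, with 3 and 8 UMIs, and Ptgs2, with 276 and 518 UMIs, also inside the granulocyte-like classes.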
